A study of Homo sapiens with 6 samples.

Results

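Tetraspanins are a family of small membrane proteins, and the family is described here through its transcripts in YAPC cells, a human pancreatic ductal adenocarcinoma (PDA) line taken by the study as a cell model of classical PDA. The members were taken by name: every TSPAN gene with a number in the deposited expression table, plus CD9, CD37, CD53, CD63, CD81, CD82, CD151, UPK1A and UPK1B. This rule found 31 genes among 25442, 22 with TSPAN names and 9 under other names. The 6 RNA-seq libraries fall into 3 from YAPC-iGLI2 cells, which carry the transcription factor GLI2 in the retroviral vector pRetroX-Tight-Puro, and 3 from YAPC-iEV cells, which carry the empty vector. Both kinds of cell also express the rtTA activator, and all 6 samples were kept in doxycycline (Dox) for 6 days. The comparison is thus of iGLI2 cells with iEV cells, both in Dox. No iGLI2 library without Dox is present, so GLI2 induction and any other difference between the engineered cells cannot be told apart. GLI2 is driven here by an artificial promoter at a level set by Dox, and a single cell line was used.

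Each tetraspanin crosses the membrane several times and exposes a small and a large extracellular loop. The large loop binds other membrane proteins, among them integrins, immunoglobulin superfamily proteins, proteases and growth factor receptors, and tetraspanins gather these partners into membrane microdomains that bear on adhesion, migration, membrane fusion and vesicle release. In pancreatic epithelium and its tumours CD9, CD63, CD81, CD82, CD151 and TSPAN8 are the best studied, as regulators of cell movement and as proteins of exosomes.

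Values are FPKM, which relate fragments to transcript length and to the size of the library, so levels can be set side by side between genes. GLI2 itself was at 0.466, 0.412 and 0.344 FPKM in the iEV libraries and at 94.5, 207 and 195 FPKM in the iGLI2 libraries, or 6.80 on the log2 scale (limma adjusted p = 0.000162). iGLI2 replicate 1 had the lowest GLI2 of its group. It also had the lowest summed FPKM, 803145. The other iGLI2 libraries had 889555 and 878233, and the iEV libraries 981341, 1082680 and 1006910. A single short RNA, MIR4461, took 42.9%, 45.4% and 42.6% of the sum in iEV and 36.2%, 37.7% and 35.7% in iGLI2. Neither measure overlapped between the groups, so library composition differs along with the comparison. Ductal epithelium markers were present, with a summed level over the 7 genes of 1914 to 2064 FPKM in iEV and 1731 to 2014 FPKM in iGLI2, although KRT8 and KRT18 are listed at 0 in all 6 libraries. Within that list MUC1, named after its values were seen, was 5.996-fold lower in iGLI2 cells (21.7 ± 2.09 and 3.61 ± 0.283 FPKM, limma adjusted p = 0.000131). EPCAM and CDH1 were higher, each by 0.37 on the log2 scale (limma adjusted p = 0.00709 and 0.0169). CDH1 lost its call without iEV replicate 2 or 3 or iGLI2 replicate 2 or 3 (limma adjusted p between 0.061 and 0.0775). Among the markers of other cell types, 3 of 9 leukocyte genes passed the filter on low values (LCP1, CD14 and CORO1A). Their list summed to 124 to 138 FPKM in iEV and 72.4 to 86.1 FPKM in iGLI2, of which LCP1 alone averaged 122.5 and 74.8 FPKM. The defining leukocyte gene PTPRC was at or below 0.0343 FPKM in every library. Fibroblast markers summed to at most 3.02 FPKM, endothelial markers to at most 0.599 FPKM and urothelial markers to at most 0.937 FPKM. No separate origin of the replicates is stated in the labels, so p-values measure only the spread between these libraries.

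The tetraspanins split by direction. Of the 22 members that passed a mean of 1 FPKM, 4 were higher in iGLI2 cells (TSPAN8, TSPAN5, TSPAN14 and TSPAN6) and 7 were lower (CD82, TSPAN4, TSPAN15, CD151, TSPAN2, TSPAN17 and CD81), by limma on log2(FPKM + 1) with an adjusted p under 0.05. That is 50% of the members tested, beside 21.9% of all 12493 genes tested, of which 10.1% were higher and 11.8% lower. The 3 libraries of one group all lay to one side of the other group's for 13 of the 22 members (59.1%), beside 42.0% of all genes tested. The median log2 fold change of the members was 0.060 and that of all genes −0.015, while the median size of the change regardless of direction was 0.56 against 0.18. In these comparisons all genes tested were not matched to the members for level, and the log2(FPKM + 1) scale understates changes of low genes. Without iGLI2 replicate 1 the same test called 6 members higher and 7 lower, and 30.0% of all genes. Without iEV replicate 2 it called 3 members higher and 6 lower, and 9.79% of all genes. In bulk RNA of a culture, fewer cells that express a gene and less RNA per cell cannot be told apart.

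**Figure D1:**
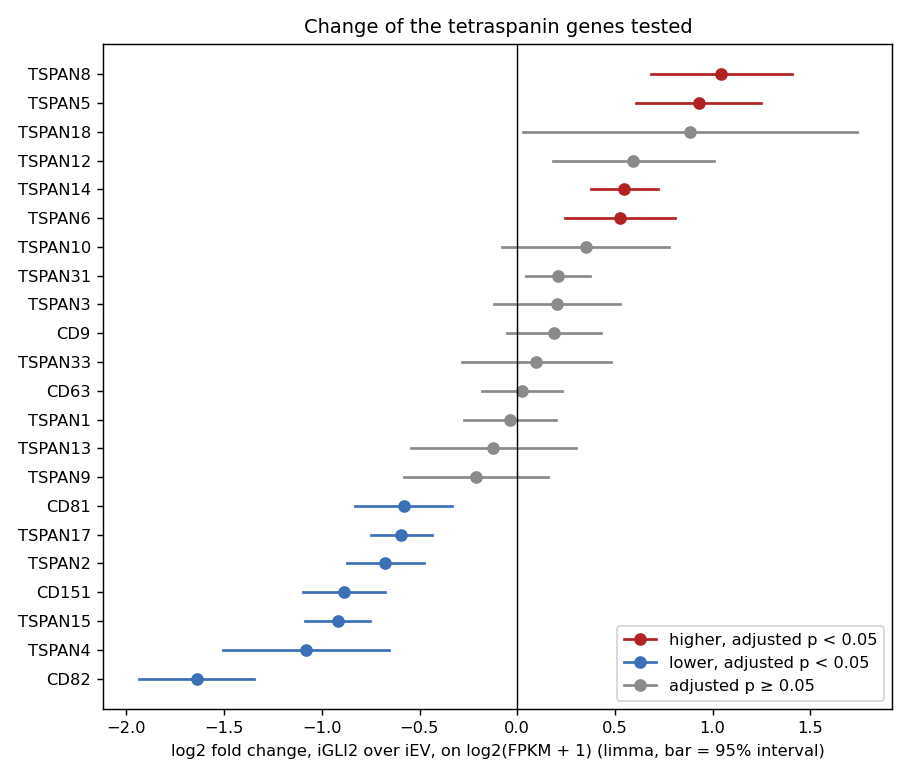
Log2 fold change of the 22 tetraspanin genes tested, iGLI2 over iEV, on the log2(FPKM + 1) scale, with 95% intervals from limma (3 libraries per group). CD82 lies lowest at −1.64 and TSPAN8 highest at 1.04, and the 11 grey members have an adjusted p of at least 0.05.

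The family spans a wide range of levels. CD63 led at a mean of 877 FPKM over the 6 libraries, which placed it 88th among all genes tested, and CD9 followed at 365 FPKM. CD151, CD81, TSPAN15 and TSPAN13 also had means above 100 FPKM. Their mean levels were 200.2, 130.1, 112 and 107 FPKM, and TSPAN13 overlapped TSPAN15 and CD81 in range. At the other end 9 members did not reach a mean of 1 FPKM. The sum over all 31 members was 2268 ± 65.9 FPKM in iEV and 2083 ± 118.5 FPKM in iGLI2 (SD, n = 3 each), with an exact permutation p of 0.1, two-sided, the smallest that 3 against 3 allows. As a share of each library's FPKM without small RNA genes, the members summed to 0.437%, 0.401% and 0.404% in iEV and to 0.452%, 0.384% and 0.371% in iGLI2, which overlap, with iGLI2 replicate 1 the highest.

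**Figure D2:**
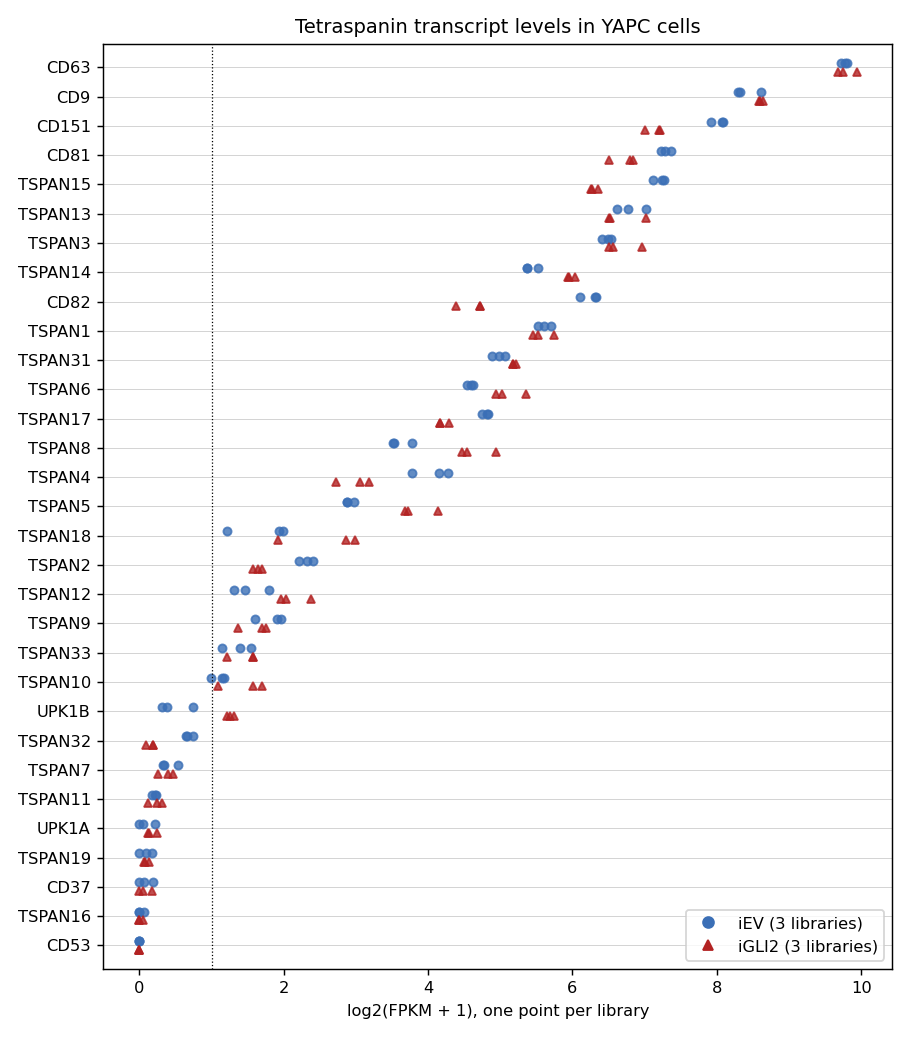
Level of each tetraspanin gene as log2(FPKM + 1), with a point for each of the 3 iEV and 3 iGLI2 libraries and genes ordered by mean. The dotted line marks 1 FPKM, below which a mean was not tested. CD63 and CD9 lie at the top in both groups, and CD53 is listed at 0 in all 6 libraries.

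Promoters of 4 members are shown because they head the changes: CD82 and TSPAN8 have the largest fall and rise, and TSPAN15 and TSPAN5 are members of the same subgroup that moved in opposite directions. Each sequence is the 250 bases before a RefSeq start on GRCh38.p14, read 5′ to 3′ along the gene's strand, with each CG pair in capitals. The positions are chr11:44565413-44565662 on the plus strand for CD82, chr12:71157810-71158059 on the minus strand for TSPAN8 (1 of 2 RefSeq starts), chr10:69451215-69451464 on the plus strand for TSPAN15 and chr4:98658612-98658861 on the minus strand for TSPAN5.
CD82: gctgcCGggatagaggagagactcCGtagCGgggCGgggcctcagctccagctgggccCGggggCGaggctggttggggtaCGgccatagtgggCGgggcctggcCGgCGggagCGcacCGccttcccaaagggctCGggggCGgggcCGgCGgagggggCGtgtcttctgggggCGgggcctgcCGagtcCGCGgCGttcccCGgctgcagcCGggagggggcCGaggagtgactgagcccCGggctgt
TSPAN8: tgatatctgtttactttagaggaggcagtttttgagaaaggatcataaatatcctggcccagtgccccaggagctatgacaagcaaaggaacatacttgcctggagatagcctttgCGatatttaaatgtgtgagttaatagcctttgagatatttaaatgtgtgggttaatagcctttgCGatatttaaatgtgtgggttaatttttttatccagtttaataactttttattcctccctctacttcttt
TSPAN15: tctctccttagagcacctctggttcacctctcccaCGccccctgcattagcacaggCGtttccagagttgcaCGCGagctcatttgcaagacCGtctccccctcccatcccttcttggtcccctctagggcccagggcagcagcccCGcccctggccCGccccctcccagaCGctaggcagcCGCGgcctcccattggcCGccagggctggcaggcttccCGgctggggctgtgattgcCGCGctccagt
TSPAN5: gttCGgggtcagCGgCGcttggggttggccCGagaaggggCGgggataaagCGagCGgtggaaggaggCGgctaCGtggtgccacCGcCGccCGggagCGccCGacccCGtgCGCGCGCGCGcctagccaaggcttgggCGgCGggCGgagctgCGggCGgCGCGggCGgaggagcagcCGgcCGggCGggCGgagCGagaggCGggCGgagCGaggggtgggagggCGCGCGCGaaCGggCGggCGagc
These stretches differ in base composition. TSPAN5 has 43 CG pairs and 80.0% G and C, CD82 has 26 pairs and 77.2%, TSPAN15 has 14 pairs and 67.6%, and TSPAN8 has 2 pairs and 36.0%. So a CG-rich and a CG-poor promoter both stand among the genes that rose.

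RefSeq promoters, taken as 250 bases before to 50 after a start, were matched for 23 of the 31 members, with 43 entries. CD151, CD81, CD37, TSPAN3, TSPAN7, TSPAN9, TSPAN18 and TSPAN32 had no entry. The consensus site of GLI proteins, GACCACCCA on either strand, was in 0 of the 43 entries and in 0.236% of all 35116 promoters in the table. Allowing 1 mismatch, 2 member entries held it, 1 of TSPAN14 and 1 of CD63 (4.65%, beside 6.74% of all promoters). The GC box GGGCGG, on either strand, was in 60.5% of member entries and 45.0% of all, and TATAAA was in 2.33% of member entries, a single entry of UPK1A, and 11.5% of all. With so low a share of exact GLI sites among all promoters, 0 of 43 entries does not set the members apart. Several entries are starts of the same gene. The SPP1 site at which the paper tested GLI2 binding lies further upstream than these windows reach. These matches describe the letters of the windows and nothing about binding.

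CD9, CD81, CD82, CD151 and TSPAN8, the members around which the list of integrin partners was drawn up, are described first. CD82, known as the metastasis suppressor KAI1, was at 67.5, 78.8 and 79.1 FPKM in the iEV libraries and at 19.9, 25.3 and 25.4 FPKM in the iGLI2 libraries. Every iGLI2 library lay far below every iEV library. The mean went from 75.2 ± 6.60 to 23.5 ± 3.16 FPKM (SD, n = 3 each), 3.20-fold lower, and its log2 fold change was −1.64 (SE 0.12, limma adjusted p = 0.000718). By log2 fold change it ranked 117th from the bottom among the 12493 genes tested. CD82 shares 6.93% of its exon bases with CD82-AS1 on the opposite strand, and the library kit does not mark strand.

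CD151 is the partner of the laminin-binding integrins in epithelial attachment. It was at 268, 271 and 241 FPKM in iEV and at 128, 145 and 147.5 FPKM in iGLI2, with no overlap. Its mean fell from 260.1 ± 16.4 to 140.3 ± 10.7 FPKM, a log2 fold change of −0.89 (SE 0.085, limma adjusted p = 0.00156). Of its exon bases 257, or 6.60%, are shared with POLR2L on the other strand, which was itself lower in iGLI2 cells, at 93.7 and 55.3 FPKM on average (limma adjusted p = 0.00476).

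CD81, a subunit of the B cell coreceptor and an entry receptor of hepatitis C virus, was at 149, 164 and 155 FPKM in iEV and at 90.2, 113 and 110.0 FPKM in iGLI2. The groups stood apart, with iGLI2 replicate 1 the lowest. The log2 fold change was −0.58 (SE 0.10, limma adjusted p = 0.0122), from 156 ± 7.21 to 104 ± 12.3 FPKM. This call was lost without iEV replicate 2 (limma adjusted p = 0.0602) and without iEV replicate 3 (0.0539).

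TSPAN8, an epithelial tetraspanin of the digestive tract that the study counts in its classical signature, went the other way. The iEV libraries had 12.7, 10.4 and 10.6 FPKM and the iGLI2 libraries 29.7, 22.3 and 21.1 FPKM. All 3 iGLI2 values were above all 3 iEV values, and iGLI2 replicate 1, with the least GLI2, was the highest. The mean rose 2.17-fold, from 11.2 ± 1.30 to 24.3 ± 4.67 FPKM, a log2 fold change of 1.04 (SE 0.15, limma adjusted p = 0.00584). CD9, which acts in cell fusion and adhesion, was at 391.7, 320.1 and 313 FPKM in iEV and 396, 386 and 381 FPKM in iGLI2. Its groups overlapped, and its log2 fold change of 0.19 had a 95% interval of −0.053 to 0.43 (limma adjusted p = 0.233). Without iEV replicate 1, the highest of its group, the limma adjusted p of CD9 was 0.0357.

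Ratios within a library do not depend on the scaling between libraries. Per CD9 transcript, CD82 went from a mean ratio of 0.224 to 0.0608, CD151 from 0.767 to 0.362 and CD81 from 0.462 to 0.270, while TSPAN8 went from 0.0328 to 0.0626. In each of these ratios the 3 iGLI2 libraries lay outside the range of the 3 iEV libraries, and each exact permutation test gave 0.1, the smallest p possible with 3 libraries in each group. Of 18 sums, shares and ratios of this kind that were computed, 17 gave this p, which is 0.106 after Benjamini-Hochberg adjustment, so none could pass 0.05.

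TSPAN4 is best known as a component of migrasomes, the vesicles that migrating cells leave on retraction fibres. The iEV libraries had 12.7, 18.4 and 16.8 FPKM and the iGLI2 libraries 5.59, 7.35 and 8.05 FPKM. The groups did not overlap, although both were spread widely for their level. TSPAN4 fell from 16.0 ± 2.95 to 6.996 ± 1.27 FPKM, 2.28-fold, for a log2 fold change of −1.08 (SE 0.17, limma adjusted p = 0.00924).

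The TspanC8 subgroup, named for the number of cysteines in the large loop, consists of TSPAN5, TSPAN10, TSPAN14, TSPAN15, TSPAN17 and TSPAN33. These proteins escort the protease ADAM10 out of the endoplasmic reticulum and steer it to different substrates. Of the 6 members, 2 rose, 2 fell and 2 were not called. TSPAN15, the most abundant of them, was at 137.5, 153 and 151 FPKM in iEV and at 75.4, 76.0 and 80.6 FPKM in iGLI2. The iGLI2 libraries sat close together and well below the iEV libraries. From 147 ± 8.52 to 77.4 ± 2.84 FPKM, the log2 fold change of TSPAN15 was −0.92 (SE 0.068, limma adjusted p = 0.000742). TSPAN17 was at 25.7, 27.2 and 27.6 FPKM in iEV and at 17.0, 18.5 and 16.9 FPKM in iGLI2. It was lower in each iGLI2 library, and the log2 fold change was −0.59 (SE 0.063, limma adjusted p = 0.00226).

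TSPAN14, one of the escorts linked to Notch signalling, was at 45.1, 40.45 and 40.4 FPKM in iEV and at 64.5, 60.7 and 60.4 FPKM in iGLI2. Replicate 1 was the highest in both groups, and the groups did not overlap. Its mean rose from 42.0 ± 2.71 to 61.8 ± 2.31 FPKM, a log2 fold change of 0.55 (SE 0.069, limma adjusted p = 0.00392). TSPAN5, close in sequence to TSPAN17, was at 6.88, 6.37 and 6.37 FPKM in iEV and at 16.5, 11.8 and 12.2 FPKM in iGLI2. All iGLI2 values exceeded the iEV values. TSPAN5 rose 2.06-fold, from 6.54 ± 0.295 to 13.5 ± 2.63 FPKM, a log2 fold change of 0.93 (SE 0.13, limma adjusted p = 0.00573). TSPAN10 averaged 1.15 ± 0.146 and 1.78 ± 0.580 FPKM and TSPAN33, which acts in red cell development, 1.59 ± 0.359 and 1.77 ± 0.386 FPKM. Neither passed the test (limma adjusted p = 0.214 and 0.695), and TSPAN10 passed only without iGLI2 replicate 1 (0.0150).

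Summed over the 6 genes, TspanC8 transcripts were at 225 ± 6.90 FPKM in iEV and at 174 ± 2.34 FPKM in iGLI2. TSPAN15 made up 65.3 ± 1.81% of the sum in iEV and 44.5 ± 1.73% in iGLI2 (SD, n = 3 each). The share of TSPAN14 was 18.7 ± 1.80% and 35.6 ± 1.00%, and that of TSPAN5 2.91 ± 0.223% and 7.76 ± 1.42%. For every TSPAN15 transcript there were 0.328, 0.264 and 0.268 of TSPAN14 in the iEV libraries and 0.856, 0.798 and 0.749 in the iGLI2 libraries. The lowest iGLI2 ratio was thus above the highest iEV ratio. TSPAN5 over TSPAN17 went from a mean of 0.244 to 0.776. All these sums, shares and ratios separated the groups with an exact permutation p of 0.1, the smallest possible here. For both ratios this was fixed by the single genes, as each numerator rose and each denominator fell without overlap. The shares of TSPAN14 and TSPAN5 had to separate as well, since the sum fell without overlap. ADAM10 was at 26.1 ± 2.08 FPKM in iEV and 22.1 ± 3.70 FPKM in iGLI2, with overlapping groups and a limma adjusted p of 0.241.

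**Figure D3:**
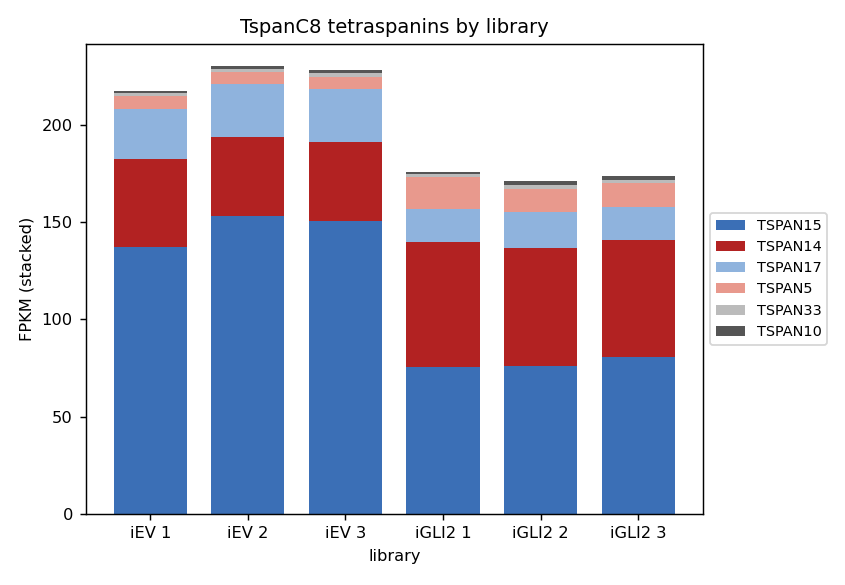
Stacked FPKM of the 6 TspanC8 genes in each of the 6 libraries. The blue TSPAN15 block is between 137.5 and 153 FPKM in iEV and between 75.4 and 80.6 FPKM in iGLI2, and the red TSPAN14 block is taller in iGLI2, at 60.4 to 64.5 FPKM against 40.4 to 45.1 FPKM.

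CD63, the tetraspanin of late endosomes and lysosomes, was at 891, 842 and 874 FPKM in iEV and at 978, 858 and 820.1 FPKM in iGLI2. The groups overlapped, and the log2 fold change of 0.023 had a 95% interval of −0.18 to 0.23 (limma adjusted p = 0.870). CD9, CD63 and CD81, the usual marker proteins of exosomes, together held 60.3 ± 0.993% of the tetraspanin sum in iEV and 66.1 ± 0.405% in iGLI2, with no overlap between groups (exact permutation p = 0.1, the smallest possible). None of these genes was called higher, and CD81 was called lower, so the larger share is not a called rise of any of them.

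The other tetraspanins tested were called in 2 cases. TSPAN2, known from oligodendrocytes, was at 3.63, 4.28 and 4.01 FPKM in iEV and at 2.23, 2.13 and 1.97 FPKM in iGLI2. It was lower in every iGLI2 library, and its log2 fold change was −0.68 (SE 0.081, limma adjusted p = 0.00327). TSPAN6, a partner of the exosome adaptor syntenin, was at 23.5, 23.1 and 22.2 FPKM in iEV and at 39.9, 31.4 and 29.8 FPKM in iGLI2. The iEV libraries were tight, and iGLI2 replicate 1 was the highest of the wider iGLI2 group. The log2 fold change of TSPAN6 was 0.53 (SE 0.11, limma adjusted p = 0.0249). The call was lost without any 1 of the iEV libraries or without iGLI2 replicate 2, where the limma adjusted p lay between 0.0614 and 0.0961.

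Of the 7 that were not called, TSPAN12 and TSPAN31 had groups that stood apart. TSPAN12, which joins the norrin receptor in retinal vessels, was at 2.48, 1.49 and 1.76 FPKM in iEV and at 4.18, 2.89 and 3.09 FPKM in iGLI2, and the log2 fold change was 0.59, 95% interval 0.18 to 1.01 (limma adjusted p = 0.0546). It passed without iEV replicate 1. TSPAN31, a gene amplified in sarcomas, averaged 30.6 ± 2.07 and 35.5 ± 0.528 FPKM (limma adjusted p = 0.0747). It shares 1369 exon bases, 26.1% of its own, with CDK4 on the other strand, and CDK4 averaged 91.0 and 87.1 FPKM. TSPAN18, an endothelial tetraspanin that works with calcium channels, was at 1.31, 2.98 and 2.81 FPKM in iEV and at 2.79, 6.96 and 6.29 FPKM in iGLI2. Replicate 1 was the lowest in both groups, the groups overlapped, and the log2 fold change of 0.88 had a 95% interval of 0.030 to 1.74 (limma adjusted p = 0.130). Without iGLI2 replicate 1 it was called. TSPAN18 shares 76 exon bases, 1.26% of its own, with TP53I11 on the other strand. TP53I11 was itself called higher, with a log2 fold change of 1.275.

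TSPAN13 and TSPAN3 are abundant in these cells. TSPAN13 averaged 111 ± 16.0 and 103 ± 21.8 FPKM and TSPAN3 88.2 ± 3.76 and 102.6 ± 18.8 FPKM, with limma adjusted p of 0.656 and 0.335. TSPAN1, an epithelial tetraspanin found raised in several carcinomas, averaged 47.8 ± 3.11 and 46.8 ± 5.05 FPKM, and its 95% interval of −0.27 to 0.20 on the log2 scale spans 0 (limma adjusted p = 0.827). TSPAN9, known from platelets, averaged 2.55 ± 0.459 and 2.07 ± 0.437 FPKM (limma adjusted p = 0.377). For none of these 4 did the groups separate.

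The 9 members below a mean of 1 FPKM are known mainly from other tissues. With no filter on low values, where 15.1% of 20035 genes were called, 2 of the 8 with a value above 0 passed. UPK1B, a plaque protein of the bladder urothelium, was at 0.678, 0.239 and 0.302 FPKM in iEV and at 1.49, 1.32 and 1.38 FPKM in iGLI2. All iGLI2 values were above all iEV values, and UPK1B passed in that fit at 0.78 on the log2 scale (limma adjusted p = 0.0125). The plaque partners UPK2 and UPK3A stayed at or below 0.657 FPKM in every library. TSPAN32, a leukocyte tetraspanin, was at 0.682, 0.566 and 0.586 FPKM in iEV and at 0.141, 0.142 and 0.0651 FPKM in iGLI2. Its groups were far apart for so low a level, and TSPAN32 passed without the filter at −0.53 on the log2 scale (limma adjusted p = 0.00177). Leukocyte markers LCP1, CD14 and CORO1A were lower in iGLI2 cells as well, while PTPRC was near 0 throughout, and their part in the TSPAN32 values was not tested. The others were UPK1A of the urothelium, CD37 of B cells, TSPAN7 of neurons, and TSPAN11, TSPAN16 and TSPAN19, all at or below 0.454 FPKM in every library and with a limma adjusted p of at least 0.535 without the filter. CD53, a leukocyte tetraspanin, is listed at 0 in all 6 libraries. The photoreceptor tetraspanins PRPH2 and ROM1, outside the naming rule, were below 1 FPKM too.

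Of the 7 tetraspanins that fell, 3 lie in the first 10 Mb of chromosome 11. On hg19 CD151 (chr11:832887-839831) and TSPAN4 (chr11:842812-867116) lie 2980 bases apart on the plus strand, and CD81 (chr11:2397407-2419032) and TSPAN32 lie 57972 bases apart in the same end of the chromosome. Windows around the called members were examined after this was seen. Within 1 Mb of CD151 and of TSPAN4, 28 of the 44 other genes tested were lower in iGLI2 cells and 2 were higher, with a median log2 fold change of −0.64. Within 1 Mb of CD81, 6 of 17 others were lower and 2 higher, with a median of −0.41. Over the first 10 Mb of chromosome 11, 71 of the 108 genes tested were lower (65.7%), the 3 members included. The 105 others had a median of −0.58, and 68 were lower, 3 higher and 95 below 0. In the rest of chromosome 11, 96 of 657 genes were lower (14.6%), with a median of −0.046. With small RNA genes removed and each library brought to the same total, the median of the 105 was −0.52.

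Set against the 105 other genes of that region, CD81 lay at the region's median, with 52 others having a lower log2 fold change. CD151 lay 0.31 below it, with 17 of the 105 lower still, and TSPAN4 0.50 below it, with 9 lower. DNA copy of the region was not measured. The other 4 tetraspanins that fell lie elsewhere. Around TSPAN17 on chromosome 5, 10 of 28 other genes within 1 Mb were lower and 0 higher, with a median of −0.34. Around CD82, which is also on chromosome 11 but outside its first 10 Mb, 2 of 6 were lower and 1 higher, and TSPAN18, 106106 bases further along, had a log2 fold change of 0.88. Around TSPAN15 on chromosome 10, 3 of 21 were lower and 2 higher, with a median of −0.024, and around TSPAN2 none of 5 was called. Near the members that rose, the others had medians of 0.10 for TSPAN8 (7 genes), −0.18 for TSPAN5 (5 genes), 0.087 for TSPAN14 (8 genes) and 0.078 for TSPAN6 (12 genes). The cause of the regional fall was not tested.

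**Figure D4:**
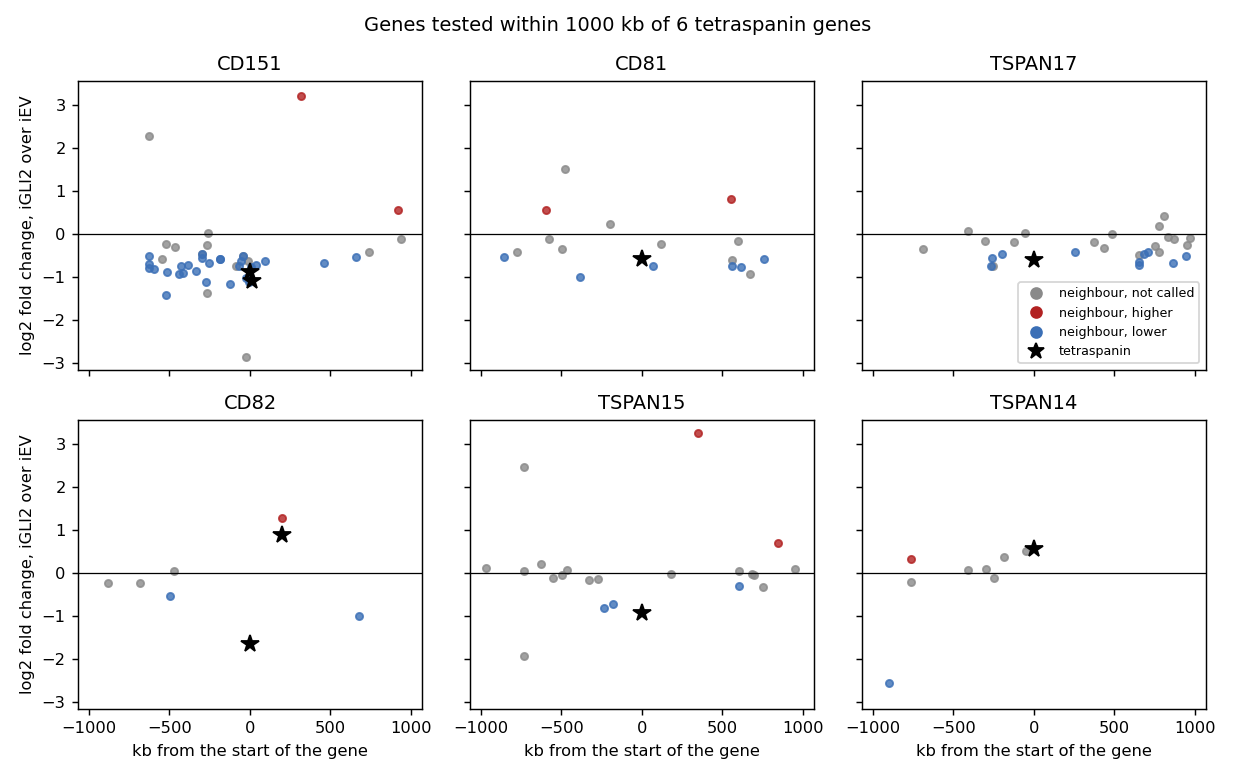
Log2 fold change, iGLI2 over iEV, of genes tested within 1 Mb of 6 called tetraspanins, by distance from the start of the tetraspanin gene, with tetraspanins as black stars. Around CD151, with TSPAN4 as the second star, 28 of 44 other genes are lower, whereas around TSPAN15 3 of 21 are lower. The upper star around CD82 is TSPAN18.

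Genes whose proteins work with tetraspanins were read from lists by role. In these lists 63 of 69 genes were tested, and 15 were higher (23.8%), 12 lower (19.0%) and 36 not called, beside 10.1% higher and 11.8% lower of all genes tested, with a median log2 fold change of 0.025 beside −0.015 for all genes tested. The calls of 13 of the 27 partner genes held under every alternative tried, among them those of CD44, EPCAM, NOTCH2, NOTCH3, CXCL16, STAM and NDP. The count of lower partners was 2 without iEV replicate 2, 3 without iEV replicate 3 or iGLI2 replicate 2, 4 without iGLI2 replicate 3 and 6 without iEV replicate 1. It was also 6 with the small RNA genes left out and libraries rescaled, where MET (limma adjusted p = 0.0599), RAB27A (0.0827), RAB35 (0.122), LAMP1 (0.109), PTGFRN (0.0667) and CLDN7 (0.164) no longer passed.

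Of the 8 integrin genes in the list, 6 rose, beside 10.1% of all genes tested, and 0 were lower, with a median log2 fold change of 0.93. ITGA2, a collagen receptor subunit, was at 53.8, 51.6 and 52.1 FPKM in iEV and at 96.8, 96.1 and 95.3 FPKM in iGLI2 (log2 fold change 0.86, limma adjusted p = 0.000398). ITGB1, the common beta subunit, was at 273, 265 and 270.0 FPKM in iEV and at 578, 531 and 514 FPKM in iGLI2, and it joins CD151 on the cell surface. Both subunits were higher in every iGLI2 library. ITGA6, a laminin receptor subunit, had a log2 fold change of 0.76 and its partner ITGB4 one of 1.48, with limma adjusted p of 0.00160 and 0.00258. ITGA3 and ITGA5, which belong to the same 8 but were named after their values were seen, had 1.16 each with limma adjusted p of 0.00814 and 0.0199, and ITGA5 lost its call when any library but iGLI2 replicate 1 was left out (limma adjusted p between 0.0532 and 0.0745). ITGAV and ITGB5 were not called.

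CD151 and the laminin receptor transcripts moved apart. ITGB1 per CD151 transcript was 1.017, 0.979 and 1.120 in the iEV libraries and 4.52, 3.66 and 3.48 in the iGLI2 libraries. ITGA6 over CD151 went from a mean of 0.379 to 1.20 and ITGA3 over CD151 from 0.486 to 2.03. Each of these ratios was higher in all 3 iGLI2 libraries, with an exact permutation p of 0.1, the smallest possible. That separation was fixed by the single genes and adds no further test. In iGLI2 each of these integrins lay above, and CD151 below, all iEV values.

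Other membrane partners were mixed, with 4 of 14 higher (28.6%), 5 lower (35.7%) and a median of −0.15. CD44, the hyaluronan receptor and also a substrate of ADAM10, rose from 40.1 ± 3.62 to 73.3 ± 1.99 FPKM (log2 fold change 0.86, limma adjusted p = 0.00138). EPCAM, which binds TSPAN8 and CD9, rose from 405 ± 11.4 to 523 ± 2.55 FPKM (0.37, limma adjusted p = 0.00709). MMP14 was higher by 0.44 and MET, the hepatocyte growth factor receptor, lower by 0.38 on the log2 scale, with limma adjusted p of 0.0133 and 0.0155. Both lost their call without iEV replicate 2, iGLI2 replicate 2 or iGLI2 replicate 3, and MET also without iEV replicate 3.

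Among ADAM10 and its substrates, 4 of 11 tested were higher (36.4%) and 2 lower (18.2%), with a median of 0.10. The Notch receptors split, as NOTCH3 rose from 1.19 ± 0.0354 to 5.75 ± 1.44 FPKM and NOTCH2 fell from 10.9 ± 0.0944 to 6.66 ± 0.273 FPKM (log2 fold changes 1.601 and −0.63, limma adjusted p = 0.00210 and 0.00111). CXCL16, a membrane-bound chemokine, fell from 21.4 ± 2.14 to 9.98 ± 1.22 FPKM (−1.03, limma adjusted p = 0.00240). NOTCH1, JAG1 and APP were not called.

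Of 14 exosome genes tested 1 was higher (7.14%) and 4 were lower (28.6%), with a median of −0.10. STAM, an endosomal sorting protein, rose from 9.40 ± 0.771 to 20.6 ± 0.388 FPKM (log2 fold change 1.05, limma adjusted p = 0.000554). The lower genes were FLOT2, RAB27A, RAB27B and RAB35, the last 3 of them regulators of vesicle docking and release, with log2 fold changes of −0.44, −0.34, −0.69 and −0.29. FLOT2 lost its call without iEV replicate 2 (limma adjusted p = 0.0529), and the 3 RAB genes lost theirs when any library but iGLI2 replicate 1 was left out (limma adjusted p between 0.0507 and 0.0942). SDCBP, which encodes syntenin, averaged 221 ± 27.0 and 263 ± 46.3 FPKM and was not called. Of 6 lysosome membrane genes LAMP1 was lower (−0.27, limma adjusted p = 0.0321), a call lost without any library but iGLI2 replicate 1, and 5 were not called. None of the 6 palmitoyltransferases, which attach lipid to tetraspanins, was called by limma, with 3 of them at an unadjusted p under 0.05, and with no filter on low values ZDHHC4 passed (limma adjusted p = 0.0459). Of the norrin receptor genes tested with TSPAN12, 2 of 5 were higher: NDP, the gene of norrin, went from 0.569 ± 0.143 to 7.69 ± 0.4999 FPKM (log2 fold change 2.47, limma adjusted p = 0.000131), and CTNNB1 was higher by 0.28, a call lost without any library but replicate 1 of either group. FZD4, LRP5 and LRP6, the receptor subunits, were not called. Of the uroplakin partners UPK3B was tested and was not called.

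**Figure D5:**
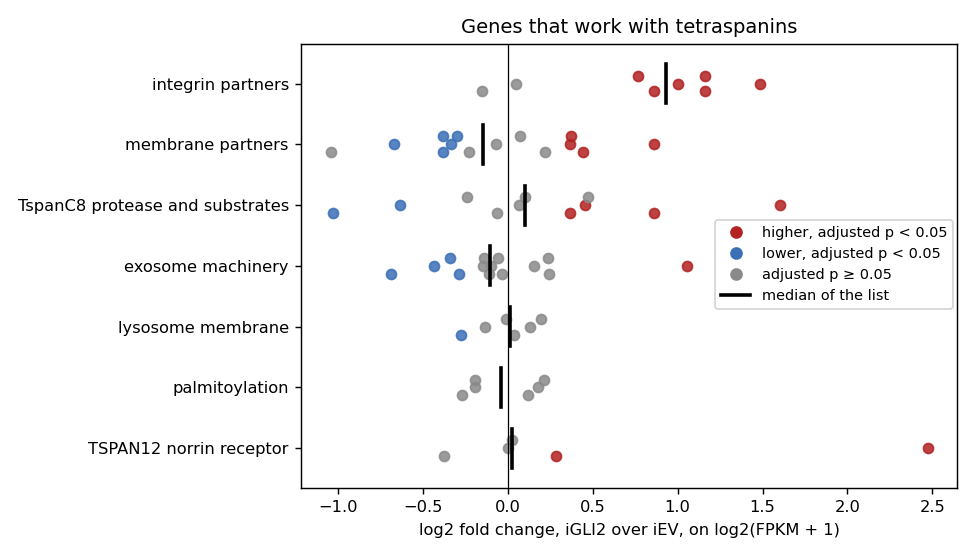
Log2 fold change, iGLI2 over iEV, of the partner genes tested, by list, with a point per gene and a bar at the list's median. Lists with 1 gene tested are left out. The median of the 8 integrin genes is 0.93, and in the exosome list 4 genes are lower and 1 is higher.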

How the data were processed

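RNA-seq was run on 6 YAPC libraries, 3 iGLI2 and 3 iEV, grouped by their labels. The authors trimmed reads with Trimmomatic and aligned them to hg19 with TopHat2, and the submitters' processing notes name Cuffdiff 2.1.1. The deposited FPKM values carry no unit in the file header, and FPKM was inferred from their form, so read depth is unknown and no counting error is given. The TruSeq kit does not mark strand.

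Of 27024 entries, 1252 off the primary chromosomes and 330 lower duplicates of a name were left out, and 0 columns lacked a sample. Genes whose mean reached 1 FPKM, 12493 in all, were tested as log2(FPKM + 1), a scale that understates changes of low genes, with limma 3.58.1 in R 4.3.3 (intensity trend, two-sided, Benjamini-Hochberg adjustment over all genes tested, threshold 0.05), after a check on simulated data. Single ratios were tested by exact permutation. Gene positions and exon overlaps came from GENCODE 44 lifted to GRCh37 (hg19), and promoters from RefSeq on GRCh38.p14.

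The members and lists were chosen with earlier results of these data known. All members are named, those called with every library's value. The plan was to name up to 4 called genes per partner list by smallest p. Further called genes, among them ITGA3, ITGA5 and RAB35, are named as well. Windows around genes were chosen after seeing the data. Alternatives were upper quartile scaling, small RNA genes left out, quantile normalization, a pseudocount of 0.1, no filter, a mean of at least 5 FPKM, no trend, a replicate block and each library left out.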

Additional observations from a re-analysis of the deposited data

How the results depend on the processing

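The count of tetraspanin genes called stayed within 3 to 6 higher and 6 to 8 lower over the alternatives. CD82, CD151, TSPAN4, TSPAN15, TSPAN17, TSPAN5, TSPAN8 and TSPAN14 were called in all 14 alternatives and TSPAN2 in the 13 that tested it, while CD81 was called in 12 and TSPAN6 in 10. With the small RNA genes left out and libraries rescaled, TSPAN12 (limma adjusted p = 0.0406) and TSPAN31 (0.0376) were called too, 59.4% of all calls were higher in place of 46.0%, and the lower partner genes numbered 6 in place of 12. With a mean of at least 5 FPKM they numbered 7, as CLDN1, HBEGF and RAB27B were not tested and PTGFRN (0.0552) and CLDN7 (0.0554) missed the threshold. Leaving out a library moved them between 2 and 13 and all calls between 1223 (without iEV replicate 2) and 3753 (without iGLI2 replicate 1), from 2742. The cause was not tested. Deviations from the group means had correlations of 0.204, 0.0919 and 0.0276 between same-numbered libraries. Between libraries of different number they ran from −0.193 to 0.117, and all but the highest, iEV replicate 2 with iGLI2 replicate 3, were negative. Deviations within a group cancel for each gene, so these negative signs are tied to the positive ones and are not separate evidence. The titles carry the codes YRE1A, YRE1B and YRE2A for iEV and YRG1A, YRG1B and YRG2B for iGLI2, without saying what they mean. Replicate 3 thus ends in 2A in iEV and in 2B in iGLI2. Whether libraries that share a code number are less independent was not tested. The labels state no pairs, so the main test used none, and whether the numbers mark pairs was not settled. The replicate block called 3928 genes, with TSPAN12 (0.00812) and TSPAN18 (0.00622) among them, 6 members higher and 7 lower. Read depth is unknown, which limits what can be said of members under 1 FPKM.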
